A study of Mus musculus with 2 samples.

Results

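Retinoic acid is the active form of vitamin A, and 8 genes that make it, break it down or carry it inside the cell were followed in single cells from allergic ear skin of WT and Ccr2-/- mice. They are Aldh1a1, Aldh1a2, Aldh1a3 and Rdh10 on the side of synthesis, Cyp26a1 and Cyp26b1 on the side of breakdown, and the binding proteins Crabp1 and Crabp2. They make up 8 of the 35208 gene rows of the expression matrix. They were picked because Aldh1a2, Aldh1a3 and Cyp26b1 were already known to differ between the genotypes in these cells, so the genotype values are given as a description, with no test. The members were chosen by levels like the following, over all cells of a pool, in CPM (reads of the gene for each 1000000 reads). Aldh1a2 stood at 13.0 CPM in the WT pool of day 3, 13.0 in the WT pool of day 5, 69.5 in Ccr2-/- mice on day 3 and 62.8 in Ccr2-/- mice on day 5. Aldh1a3 stood at 34.1, 31.4, 282 and 119 CPM in the same order, and Cyp26b1 at 180, 105, 302 and 308 CPM.

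The study used IgE-mediated chronic allergic inflammation (IgE-CAI), a skin reaction in which basophils start a late ear swelling. BALB/c mice received 300 μg of a TNP-specific IgE into a vein and, on the next day, 10 μg of TNP-OVA into the skin of the right ear, with OVA alone in the left. The 4 groups were WT mice on day 3, WT mice on day 5, Ccr2-/- mice on day 3 and Ccr2-/- mice on day 5 post-challenge, all BALB/c males aged 7 to 12 weeks. Ccr2-/- mice lack the chemokine receptor CCR2 in every cell, the receptor by which monocytes leave the bone marrow, so the difference between genotypes is not limited to 1 cell type. Each group was 1 hashtag-labelled pool, the number of mice in a pool is not given in the sources used here, and all 4 pools were mixed and captured on 1 cartridge. With 1 pool for each genotype and day there was no replicate pool, and mouse, pool and genotype cannot be told apart.

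Cells take up retinol, and RDH10 oxidises it to retinal. The ALDH1A enzymes then turn retinal into retinoic acid, the step that commits the molecule to signalling. Retinoic acid binds nuclear receptors of the RAR family, the CYP26 enzymes oxidise it to less active products, and CRABP proteins hold it in the cytosol, CRABP2 passing it on to the receptors. In skin, retinoic acid acts on keratinocyte differentiation, and fibroblasts and some immune cells are known sources of it.

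Cyp26a1 is the textbook case of a breakdown gene that retinoic acid itself switches on through receptor sites near its start. The letters of the receptor motif AGGTCA, or its variant AGTTCA, were therefore looked for on both strands in the 250 bases before each start, in RefSeq promoters of build GRCm38.p6. Promoter entries matched 5 of the 8 genes. The Cyp26a1 window held 2 motif copies in direct repeat with a spacing of 5 bases, starting 32 and 21 bases before the start. No copy was found in the windows of Aldh1a1, Aldh1a2, Cyp26b1 and Crabp1, which says nothing of sites elsewhere. Among all 32841 promoters searched, 24.2% held at least 1 copy and 0.137% held such a direct repeat with a spacing of 1, 2 or 5. The last 100 bases before the start are shown for the breakdown gene with the repeat and for the synthesis and breakdown gene whose levels the results turn on, 5′ to 3′ on the gene's own strand, with motif copies in capitals. They lie at chr19:37697708-37697807 on the plus strand for Cyp26a1, chr9:71215689-71215788 on the plus strand for Aldh1a2 and chr6:84593811-84593910 on the minus strand for Cyp26b1. Both Cyp26a1 copies read TGAACT on this strand, the variant on the opposite strand. The GENCODE genes begin at 37697798 for Cyp26a1 and, on the minus strand, at 84593908 for Cyp26b1, so both RefSeq starts lie inside them. All but the first few bases of the Cyp26b1 stretch shown therefore fall within its GENCODE gene, as do the last few of the Cyp26a1 stretch. The motif search for Cyp26b1 thus reached less far before the GENCODE start.
Cyp26a1: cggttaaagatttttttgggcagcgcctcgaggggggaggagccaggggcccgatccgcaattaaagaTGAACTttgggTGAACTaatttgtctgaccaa
Aldh1a2: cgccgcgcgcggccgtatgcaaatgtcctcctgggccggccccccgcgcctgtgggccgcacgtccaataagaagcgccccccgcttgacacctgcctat
Cyp26b1: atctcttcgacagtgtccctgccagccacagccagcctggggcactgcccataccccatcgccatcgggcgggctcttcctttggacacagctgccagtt

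The 8 genes lie at separate loci except that Aldh1a1 and Cyp26a1 share chromosome 19 and Aldh1a2 and Crabp1 share chromosome 9. In the GENCODE M21 annotation of GRCm38, Aldh1a2 spans chr9:71215789-71296243, Aldh1a3 chr7:66390890-66427517 and Cyp26b1 chr6:84571414-84593908. Taking whole gene spans, Aldh1a1 and Aldh1a2 each overlap a gene on the other strand (C730002L08Rik and the pseudogene Gm48124). Whether exons overlap was not checked, and where they do, reads of the pair cannot be told apart unless the counting used the strand. No pair of members shared a 30-base stretch of transcript, so reads of that length are not split among them.

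After filtering, 7118 cells were left, with 1543 and 1037 cells in the WT pools on days 3 and 5 and 2191 and 2347 in the Ccr2-/- pools. The pools held 68064673 to 162572556 reads. Ccr2 itself, which checks the labels, stood at 902 and 663 CPM in Mo-Mac-like cells of WT mice (days 3 and 5) and at 88.6 and 52.7 CPM in those of Ccr2-/- mice, and which part of the transcript the remaining reads cover is not given. The makeup of the pools differed, as Mo-Mac-like cells numbered 447 and 438 in WT and 138 and 91 in Ccr2-/- pools, and fibroblast-like cells 325 and 272 in WT and 738 and 584 in Ccr2-/- pools. Fibroblast-like cells of Ccr2-/- pools were also read more deeply, with medians of 136193.5 and 137629.5 reads per cell against 84868 and 83928.5. Shares of cells with a read are therefore given after thinning to 10000 reads per cell, with shallower cells left out. This left out 12 of 1919 fibroblast-like cells (2 to 4 in each pool), 57 of 1114 Mo-Mac-like cells (24 and 18 in WT, 12 and 3 in Ccr2-/- pools), 9 of 306 perichondrial-like cells, 53 of 247 T cell-like cells and 664 of 1243 neutrophil-like cells, so the background shares in neutrophil-like cells rest on 579 of the deeper cells. The methods describe a subtraction of background reads, and whether the deposited counts had it is not clear, as 22.1% of all values above 0 were a single read.

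The 8 genes fell into different cell types. Fibroblast-like cells, named from collagens, Pdgfra, Dcn and other matrix genes, had the highest level of 4 of them among the named types with 20 or more cells, namely Aldh1a2, Aldh1a3, Cyp26b1 and Crabp1. When each cell was instead gated alone by its markers, Aldh1a2 was highest in cells of the eosinophil list. The ranks that follow are among named types, over the 4 pools. Unnamed clusters lay between some of them, and for Crabp1 above all, with 149.3 CPM in the 302 cells led by Gadd45b and Malat1. Aldh1a2 stood at 79.3 CPM in fibroblast-like cells, which held 97.0% of its reads, ahead of basophil-like cells at 10.2 and perichondrial-like cells at 9.27 CPM, while the unnamed clusters Gadd45b/Malat1 and Mir6240/Alpk2 had 49.6 and 15.8 CPM. Aldh1a3 stood at 239 CPM there with 96.2% of its reads, ahead of perichondrial-like cells at 23.0 CPM. Crabp1 stood at 106 CPM with 95.5% of its reads, ahead of perichondrial-like cells at 11.01 CPM. Cyp26b1 was more widely read, with 357 CPM in fibroblast-like cells (83.9% of its reads), 198 in pericyte-like cells, 162 in perichondrial-like cells and 160 in Mo-Mac-like cells. Perichondrial-like cells, named from cartilage matrix genes, had the highest level of Aldh1a1 (122 CPM, against 34.8 in fibroblast-like cells) and of Cyp26a1 (367 CPM, against 8.47 in the next named type, blood endothelial-like cells, and 14.6 in the unnamed Mir6240/Alpk2 cluster). Rdh10 was at 60.2 CPM in pericyte-like cells and 58.7 in fibroblast-like cells, an order that turned when cells were weighted equally. Crabp2 was read mainly in Mo-Mac-like cells, which held 74.6% of its reads at 115 CPM. Its higher value in Schwann-like cells, 206 CPM, came from 130 reads in 1 of 23 cells.

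**Figure D1:**
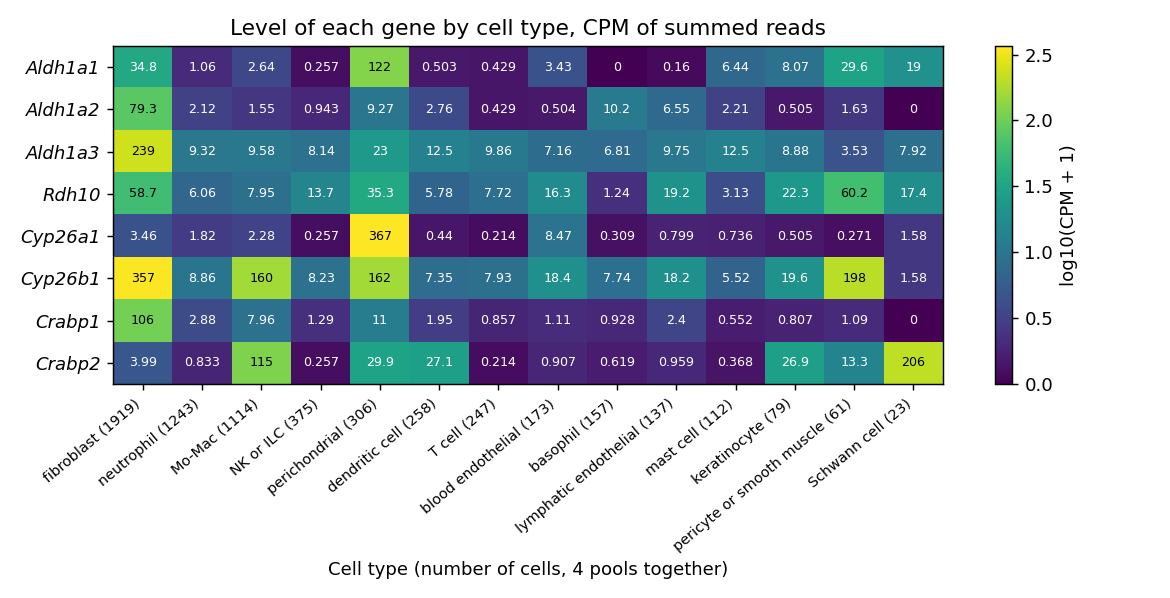
Heat map of the level of the 8 retinoic acid genes (rows) in 14 named cell types (columns, with their number of cells), as log10(CPM + 1) of reads summed over the 4 pools. Read along each row, Aldh1a2, Aldh1a3 and Crabp1 are high in fibroblast-like cells alone of these named types, Cyp26a1 in perichondrial-like cells, and Cyp26b1 in several stromal types and Mo-Mac-like cells.

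Summed over all cells, where cell type makeup and level per cell cannot be told apart, 3 of the 8 genes were at least 2-fold apart between genotypes in one direction at both days, against 7.95% of the 26125 genes that could be counted and 5.2% of those with 500 or more reads. These were Aldh1a2 and Aldh1a3, higher in Ccr2-/- mice, and Crabp2, lower in Ccr2-/- mice at 13.1 and 17.8 CPM against 35.3 and 43.5. Crabp2 no longer passed with the mean over cells, after thinning, or with cells of over 100000 reads left out. Crabp1 stood at 40.3 and 35.6 CPM in WT, and 72.2 and 87.0 in Ccr2-/- mice, and Aldh1a1 at 34.9 and 29.4 against 26.5 and 24.7 CPM. Within fibroblast-like cells, 2 of the 8 genes passed, Aldh1a2 and Aldh1a3, against 6.53% of all genes and 2.83% of genes with 500 or more reads. Since these genes were picked for that contrast, nothing is read from the count.

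Aldh1a2 encodes the retinal dehydrogenase that supplies most retinoic acid in the embryo. In fibroblast-like cells it stood at 28.3 CPM (95% interval 26.5 to 30.1, 998 reads) in WT mice on day 3 and 29.2 (27.2 to 31.2, 842 reads) on day 5. In Ccr2-/- mice it stood at 95.4 CPM (93.7 to 97.2, 10997 reads) on day 3 and 93.7 (91.7 to 95.6, 9137 reads) on day 5. Both Ccr2-/- pools lay above both WT pools, by 3.38-fold (3.16 to 3.61) on day 3 and 3.21-fold (2.99 to 3.45) on day 5. At equal depth, 6.54% and 7.04% of WT fibroblast-like cells had a read of Aldh1a2, against 17.8% and 15.3% of Ccr2-/- ones (unthinned, 13.5% and 12.5% against 28.5% and 30.3%). Neutrophil-like cells, which should lack the gene, had a read in 0.864% of cells at the same depth. Few cells carried the WT values, as 1 cell held 17.03% of the reads on day 3 and 31.2% on day 5. With cells of over 100000 reads left out the ratio was 2.99 on day 3 and 1.70 on day 5, so on day 5 it no longer reached 2-fold.

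Aldh1a3 encodes a second retinal dehydrogenase. It stood at 67.5 CPM (64.8 to 70.3, 2383 reads) and 61.4 CPM (58.6 to 64.3, 1772 reads) in the fibroblast-like cells of WT mice. In Ccr2-/- fibroblast-like cells it stood at 391 CPM (387 to 394, 45023 reads) on day 3 and 174 CPM (172 to 177, 17007 reads) on day 5. The Ccr2-/- pool on day 3 was the highest of the 4, and both Ccr2-/- pools lay above both WT pools. The ratio was 5.79 (5.56 to 6.04) on day 3 and 2.84 (2.70 to 2.98) on day 5. After thinning, 12.8% and 9.63% of WT cells and 39.0% and 23.8% of Ccr2-/- cells had a read, against 6.74% of neutrophil-like cells and 6.70% of T cell-like cells. Unthinned, it was 35.1% and 34.6% of WT against 62.1% and 53.4% of Ccr2-/- fibroblast-like cells. The interval of the WT share on day 5, 6.39 to 13.8%, overlapped that of neutrophil-like cells, 4.83 to 9.09%, so at this depth that share could not be told from free RNA. Cells above 100 CPM made up 10.5% and 6.25% of WT and 35.6% and 19.5% of Ccr2-/- fibroblast-like cells.

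Aldh1a1, the third retinal dehydrogenase, had the opposite order of pools. It stood at 54.2 CPM (51.8 to 56.7) and 57.1 CPM (54.4 to 59.9) in WT and at 28.8 (27.8 to 29.8) and 28.2 CPM (27.1 to 29.2) in Ccr2-/- fibroblast-like cells. The ratios of 0.531 on day 3 and 0.494 on day 5 put it just outside the 2-fold rule, which it met on day 5 but not on day 3. With fibroblast-like cells named from finer clusters, Aldh1a1 met the rule at both days. At equal depth, 26.2% and 27.0% of WT cells had a read against 14.8% and 14.7% of Ccr2-/- cells, with 0.518% of neutrophil-like cells (unthinned, 42.2% and 44.9% against 31.4% and 33.9%). In perichondrial-like cells, where its level was highest, it stood at 215 and 135 CPM in WT, and 96.9 and 92.0 in Ccr2-/- mice, the same order. Fibroblast-like cells held 73.6% of its reads and perichondrial-like cells 21.5%. Rdh10, the retinol dehydrogenase of the first step, stood at 52.8 and 47.1 CPM in WT, and 47.9 and 77.1 in Ccr2-/- fibroblast-like cells. Its ratio was 0.907 on day 3 and 1.63 on day 5, and on day 3 the direction depended on how cells were weighted.

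**Figure D2:**
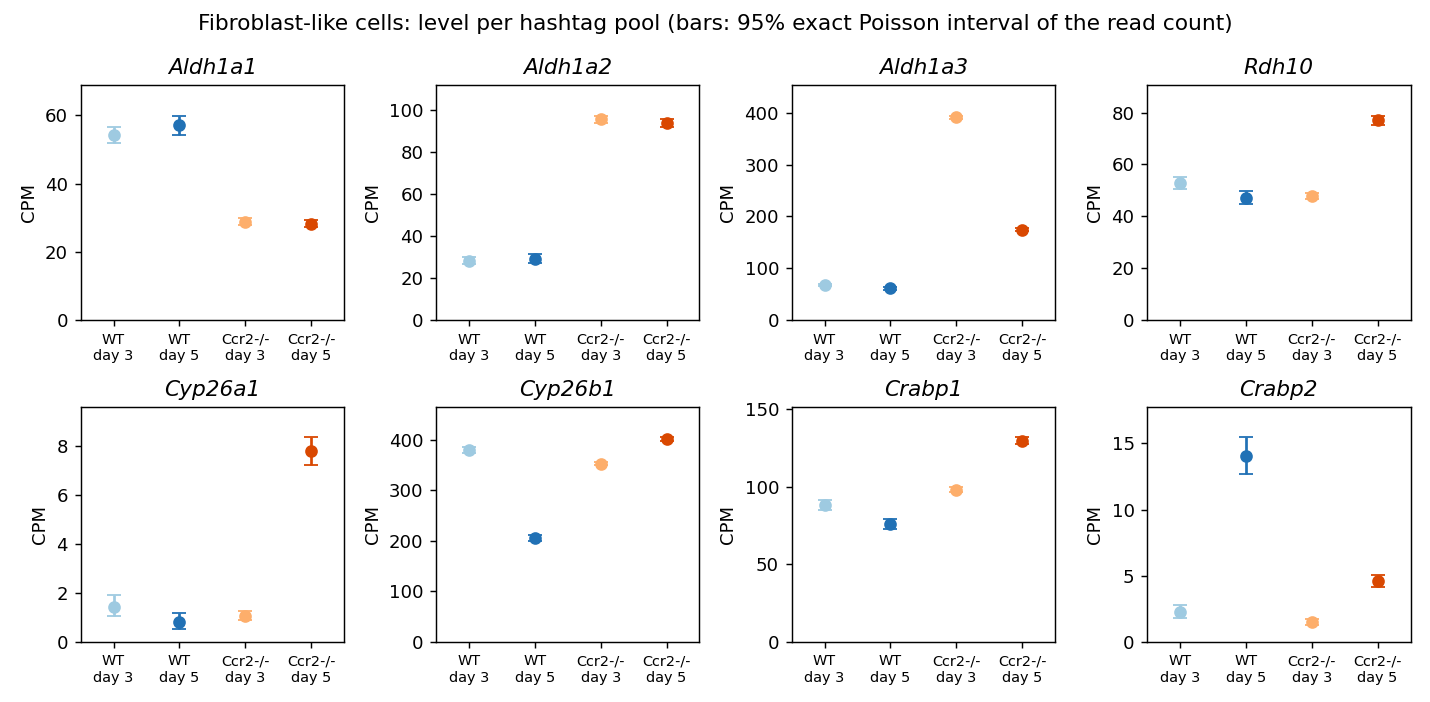
Level of each of the 8 genes in fibroblast-like cells of the 4 pools, in CPM of summed reads with exact 95% Poisson intervals (1 panel per gene, each axis from 0). Aldh1a2 and Aldh1a3 are higher in both Ccr2-/- pools than in both WT pools, Aldh1a1 is lower, and Cyp26b1 is lowest in the WT pool on day 5.

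Fibroblast-like cells were split further, without the 8 genes, into 6 clusters called here by their leading genes, and the pools filled them unequally. Clusters Scara5/Lrrn4cl and Cilp/Myoc held 34.2% and 26.5% of WT cells on day 3 and 47.1% and 30.1% on day 5, against 20.7% and 11.9%, and 19.5% and 10.6%, in Ccr2-/- mice. Cluster Cdk1/Hist1h2ap, led by cell cycle and histone genes, held 27.8% and 31.2% of Ccr2-/- cells against 13.5% and 8.82% of WT cells. Cluster Ccl19/Ccl11 held 30.8% of the Ccr2-/- cells on day 3 and 14.0% on day 5, against 13.2% and 3.68% in WT mice. What part this makeup has in the values over all fibroblast-like cells was not tested, and the levels within clusters are given next.

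Aldh1a3 was concentrated in 2 of the 6 clusters. Cluster Ccl19/Ccl11 had 513 CPM over the 4 pools and 50.5% of the fibroblast-like reads, and cluster Cdk1/Hist1h2ap had 280 CPM and 44.1%, while the other 4 clusters had 22.2 to 39.2 CPM. Within Ccl19/Ccl11 the level was 146 CPM in 43 WT cells and 634 CPM in 227 Ccr2-/- cells on day 3, a ratio of 4.34, and 438 CPM in 10 WT cells and 380 CPM in 82 Ccr2-/- cells on day 5. Within Cdk1/Hist1h2ap it was 81.7 and 81.6 CPM in WT, and 389 and 234 in Ccr2-/- pools, ratios of 4.75 and 2.87. Clusters Scara5/Lrrn4cl and Cilp/Myoc also had ratios above 2 at both days (2.67 and 5.57, and 4.42 and 3.59), at lower levels. Cluster Hp/Lcn2 on day 5 (0.209, with 15 WT cells) and cluster Coch/Gldn on day 3 (0.135) had the opposite order, 1 cell holding 80.4% and 97.9% of the WT reads.

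Aldh1a2 had another distribution. Cluster Hp/Lcn2, led by the acute phase gene Hp and by Lcn2, had 145 CPM, followed by Cdk1/Hist1h2ap with 93.2 and Ccl19/Ccl11 with 88.0, and cluster Coch/Gldn had 4.99 CPM. Taken alone, Hp/Lcn2 scored highest on the adipocyte list, with 1 of its 5 markers in at least 25% of cells, and so had no name at this resolution. All 7 fibroblast markers reached that share in it and summed to 66177 CPM, within the 35956 to 92838 CPM of the other clusters. With the fibroblast-like type formed at the finer resolution, which leaves this cluster out, the ratio of Aldh1a2 was 3.00 on day 3 and 2.55 on day 5. In Hp/Lcn2 it stood at 235 CPM in 34 and 153 CPM in 109 Ccr2-/- cells on days 3 and 5, against 10.6 CPM in 10 and 18.6 CPM in 15 WT cells. The ratio was 1.97 on day 3 and 3.30 on day 5 within Cdk1/Hist1h2ap, 6.36 and 1.63 within Scara5/Lrrn4cl, and 1.72 and 0.620 within Cilp/Myoc. So of these 3 clusters the last turned its order on day 5, at 22.2 CPM in WT and 13.8 CPM in Ccr2-/- mice, where 1 cell held 78.5% of the WT reads. Rdh10, which makes the substrate of the ALDH1A enzymes, was also highest in Hp/Lcn2, at 143 CPM against 61.2 in Cdk1/Hist1h2ap. Aldh1a1 was highest elsewhere, with 135 CPM in Coch/Gldn, 86.2 in Cilp/Myoc and 55.7 in Scara5/Lrrn4cl against 15.9 in Cdk1/Hist1h2ap.

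**Figure D3:**
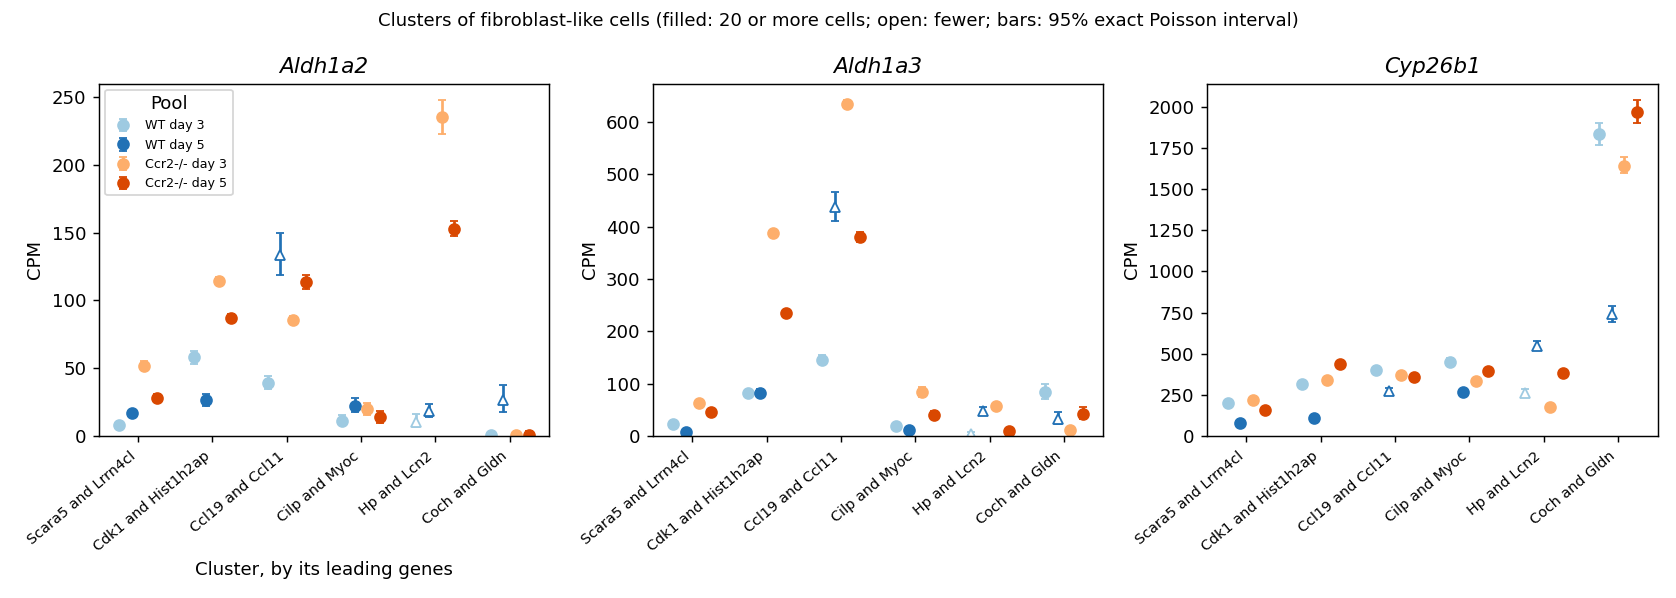
Level of Aldh1a2, Aldh1a3 and Cyp26b1 in the 6 finer clusters of fibroblast-like cells and in each of the 4 pools, in CPM of summed reads. Filled circles stand for 20 or more cells and open triangles for fewer. Aldh1a3 is high in Ccl19/Ccl11 and Cdk1/Hist1h2ap, Aldh1a2 in Hp/Lcn2 of Ccr2-/- mice, and Cyp26b1 in Coch/Gldn of every pool.

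Cyp26b1 encodes the main retinoic acid hydroxylase of skin and limb. In fibroblast-like cells it stood at 379 CPM (373 to 386) on day 3 and 205 CPM (200 to 211) on day 5 in WT mice, and at 352 CPM (349 to 356) and 400 CPM (396 to 404) in Ccr2-/- mice. The WT pool on day 5 lay below the other three, which lay close together. The ratio was 0.929 (0.911 to 0.947) on day 3 and 1.95 (1.898 to 2.005) on day 5, the latter just outside the 2-fold rule. The order on day 3 turned, to ratios of 1.01 and 1.02, with a stricter hashtag limit and with coarser clusters. At equal depth, 38.6%, 33.3%, 41.2% and 46.4% of cells had a read for WT days 3 and 5 and Ccr2-/- days 3 and 5, in that order, against 3.63% of neutrophil-like cells. Unthinned, these shares were 59.7%, 55.5%, 64.8% and 71.4%. Cells above 100 CPM held 96.3 to 97.8% of its reads in every pool. Cluster Coch/Gldn had by far the highest level, 1607 CPM against 165 to 369 in the other 5 clusters, with 1834 and 739 CPM in WT, and 1643 and 1969 in Ccr2-/- pools. Within Cdk1/Hist1h2ap the ratio was 1.07 on day 3 and 4.05 on day 5.

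The wider gap in Cyp26b1 lay in Mo-Mac-like cells, the monocytes and macrophages of the lesion, where 1 of the 8 genes was at least 2-fold apart at both days against 8.34% of all genes. Among genes with 500 or more reads it was 1 of 5 of the members against 3.74%. Since Cyp26b1 was picked for the contrast of genotypes, nothing is read from these counts. Another member also passed under 3 settings, Crabp2 (higher) without cells of over 100000 reads, Crabp1 (lower) without the top cell of each pool and Aldh1a1 (lower) with a gate per cell. Cyp26b1 stood at 41.1 CPM (38.7 to 43.6, 1062 reads) and 26.1 CPM (24.2 to 28.1, 677 reads) in WT Mo-Mac-like cells on days 3 and 5. It stood at 547 CPM (534 to 561, 6082 reads) and 458 CPM (443 to 473, 3464 reads) in Ccr2-/- ones. Both Ccr2-/- pools lay far above both WT pools, by 13.3-fold (12.5 to 14.2) on day 3 and 17.5-fold (16.2 to 19.1) on day 5. After thinning, 9.22% (6.64 to 12.4) and 7.86% (5.47 to 10.9) of WT cells had a read, against 31.7% (23.7 to 40.6) and 20.5% (12.6 to 30.4) of Ccr2-/- cells. Unthinned, it was 22.6% and 23.5% against 42.0% and 35.2%.

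The reads came from few cells. In the Ccr2-/- pools 36 and 13 Mo-Mac-like cells exceeded 100 CPM of Cyp26b1, in the WT pools 27 and 16, and 1 cell held 16.2% and 43.3% of the Ccr2-/- reads and 26.4% and 20.7% of the WT reads. Without the top cell of each pool the levels were 30.4 and 20.9 CPM in WT, and 468 and 269 in Ccr2-/- mice, and the ratios were 15.4 and 12.9. With cells of over 100000 reads left out the ratios were 5.51 and 30.5. The summed fibroblast markers stood beside these values. Mo-Mac-like cells above 100 CPM of Cyp26b1 had 5859 and 8413 CPM of fibroblast markers in WT mice, against 1399 and 1882 in cells with no Cyp26b1 read. In Ccr2-/- mice they had 1183 and 765 CPM, against 1117 and 893 in cells with no read, while fibroblast-like cells had 58545 CPM. In Ccr2-/- pools the Mo-Mac markers of the cells above 100 CPM summed to 11210 and 12837 CPM, against 12026 and 12556 in cells with no read. The source of the Cyp26b1 reads in these cells was not tested.

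Mo-Mac-like cells formed 3 finer clusters, and the genotypes filled them differently. Cluster C1qa/C1qc, led by complement genes of mature macrophages, held 102 and 284 WT cells and 55 and 45 Ccr2-/- cells on days 3 and 5, and cluster Arg1/Chil3 held 233 and 83 WT and 56 and 36 Ccr2-/- cells. In C1qa/C1qc Cyp26b1 stood at 27.2 and 29.7 CPM in WT, and 552 and 338 in Ccr2-/- mice, 87.8% of the last value coming from 1 cell. In Arg1/Chil3 it stood at 44.0 and 20.4 CPM in WT, and 577 and 653 in Ccr2-/- mice, ratios of 13.1 and 32.0. Cluster Ms4a4c/Ccr2 had 59.1 CPM in 107 WT and 257 CPM in 26 Ccr2-/- cells on day 3, and its 10 Ccr2-/- cells on day 5 had reads in 1 cell alone. Dendritic cell-like cells, which take part in retinoic acid production elsewhere, had 3.98 to 13.0 CPM of Cyp26b1 in the 4 pools.

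**Figure D4:**
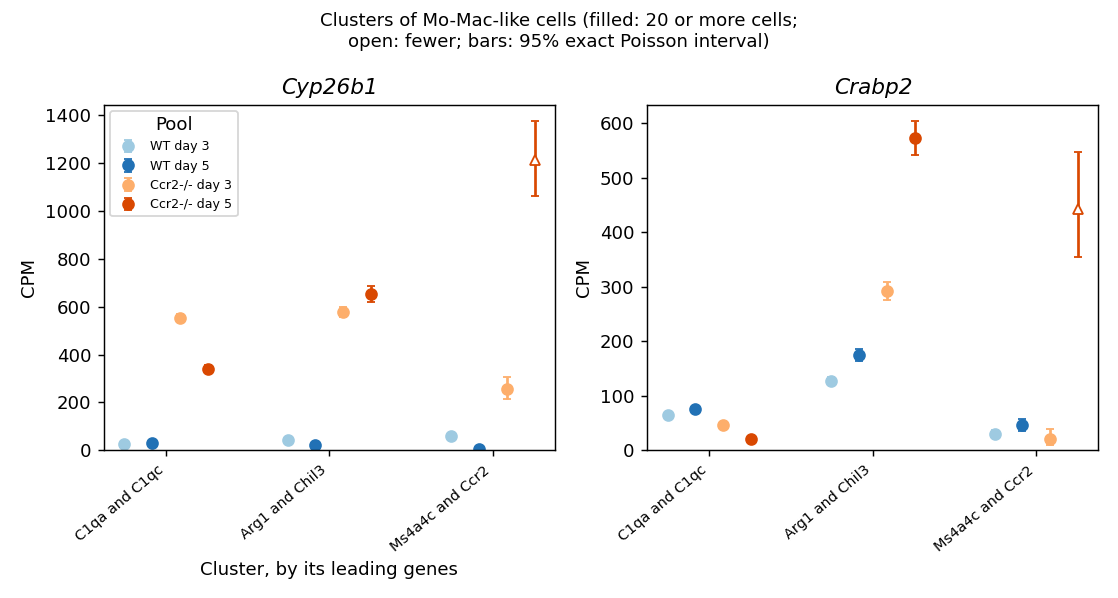
Level of Cyp26b1 and Crabp2 in the 3 finer clusters of Mo-Mac-like cells in each of the 4 pools, in CPM of summed reads. Filled circles stand for 20 or more cells and open triangles for fewer. Cyp26b1 is higher in Ccr2-/- than in WT pools in C1qa/C1qc and in Arg1/Chil3, while Crabp2 is higher in Ccr2-/- pools in Arg1/Chil3 and lower in C1qa/C1qc.

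Cyp26a1, the other breakdown enzyme, was a gene of perichondrial-like cells, which held 86.1% of its reads in 306 cells. There it stood at 440 CPM (421 to 459) and 228 CPM (206 to 252) in WT mice (days 3 and 5) and at 298 CPM (286 to 310) and 425 CPM (411 to 439) in Ccr2-/- mice. The ratio was 0.677 on day 3 and 1.86 on day 5, so the genotypes changed order between the days. The WT value on day 5 rests on 28 cells. At equal depth, 46.8% and 29.6% of WT and 44.8% and 50.5% of Ccr2-/- perichondrial-like cells had a read, against 0.691% of neutrophil-like cells (unthinned, 51.9% and 42.9% against 49.5% and 60.2%). Cells above 100 CPM of Cyp26a1 had 2901 CPM of perichondrial markers against 1453 in cells with no read. Their Mo-Mac markers were also higher, at 526 against 243 CPM, and their fibroblast markers lower, at 35509 against 44015 CPM. In fibroblast-like cells Cyp26a1 was at 1.44, 0.797, 1.07 and 7.80 CPM in the 4 pools in the order above, and 1 cell held 56.1% of the last value. Without that cell it was 3.43 CPM.

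Crabp1, which binds retinoic acid in the cytosol, stood at 88.4 and 76.0 CPM in WT, and 98.2 and 130 in Ccr2-/- fibroblast-like cells, ratios of 1.11 and 1.71. The ratio on day 3 turned to 0.770 when the mean over cells was taken. Cluster Coch/Gldn had 296 CPM and Cdk1/Hist1h2ap 173 CPM with 61.8% of the reads. At equal depth it was found with Cyp26b1, as 68.9% of the 296 fibroblast-like cells with a Crabp1 read also had one of Cyp26b1, against 36.1% of the rest. Aldh1a2 was found with Rdh10 (33.5% of 260 cells, against 17.1% of the rest), and Aldh1a3 less with Aldh1a1 (11.6% of 492 cells, against 20.8%). These shares pool 4 groups and cells of unequal quality and are a description.

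Crabp2, which hands retinoic acid to its receptors, stood at 98.8 CPM (95.1 to 103) and 94.4 CPM in WT Mo-Mac-like cells and at 143 and 201 CPM in Ccr2-/- ones, ratios of 1.45 and 2.13. At equal depth 13.2% and 13.3% of WT and 21.4% and 29.5% of Ccr2-/- cells had a read, against 1.04% of neutrophil-like cells (unthinned, 16.3% and 18.3% against 23.2% and 30.8%). Clusters Arg1/Chil3 and C1qa/C1qc went opposite ways in summed reads. In Arg1/Chil3 it stood at 128 and 175 CPM in WT, and 291 and 572 in Ccr2-/- mice, ratios of 2.28 and 3.27. In C1qa/C1qc it stood at 64.2 and 76.3 CPM in WT, and 46.4 and 20.8 in Ccr2-/- mice, ratios of 0.723 and 0.273. These Ccr2-/- values rested on reads in 7 of 55 and 5 of 45 cells, 1 cell holding 41.3% and 48.6%. Unthinned, 10.8% and 19.0% of WT and 12.7% and 11.1% of Ccr2-/- cells of this cluster had a read. Cluster Ms4a4c/Ccr2 stood at 30.5 and 45.6 CPM in WT, and 21.2 and 443 in Ccr2-/- mice, with reads in 2 of 26 and 2 of 10 Ccr2-/- cells. Dendritic cell-like cells had 3.70 CPM in 94 cells and no read in 73 cells of WT mice (days 3 and 5), and 93.4 CPM in 31 and 51.4 CPM in 60 cells of Ccr2-/- mice, with reads in 6 and 9 cells. Over all cells Crabp2 was lower in Ccr2-/- pools in summed reads, while within Mo-Mac-like cells it was higher and those pools held fewer such cells. The order over all cells turned on day 5 when cells of over 100000 reads were left out.

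**Figure D5:**
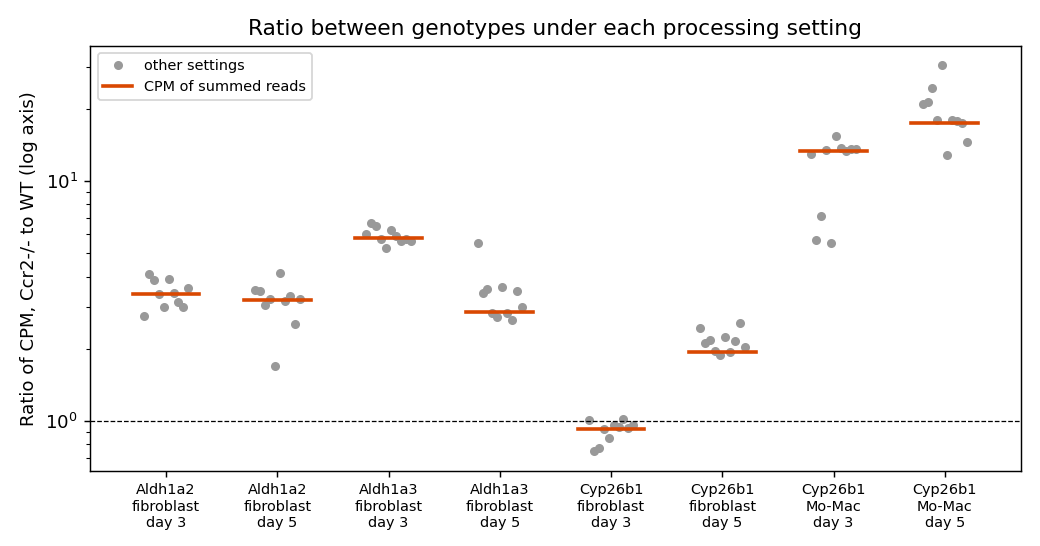
Ratio of Ccr2-/- to WT levels (log axis, dashed line at equality) of Aldh1a2, Aldh1a3 and Cyp26b1 in fibroblast-like cells and of Cyp26b1 in Mo-Mac-like cells on days 3 and 5. The orange line is the CPM of summed reads and each grey mark another setting. Aldh1a2, Aldh1a3 and Cyp26b1 of Mo-Mac-like cells stay above 1 under every setting shown, and Cyp26b1 of fibroblast-like cells on day 3 lies on both sides of it.

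The rest of the pathway was looked at in lists, which share Stra6, Dhrs3 and Rarb. In fibroblast-like cells 5 of 6 genes of retinol uptake and storage had over 100 reads, and 2 of these 5 were at least 2-fold higher in Ccr2-/- mice at both days. Of all 17342 genes with over 100 reads, 4.47% passed in either direction. Stra6, the retinol uptake receptor, had no read in either WT pool and 1.08 and 0.420 CPM in Ccr2-/- pools, at least 12.7-fold and 4.04-fold higher against a floor of 3 reads per pool. Bco1, which cleaves beta-carotene to retinal, stood at 0.142 and 0.139 CPM in WT, and 0.599 and 0.533 in Ccr2-/- pools. With over 100 reads, none of 13 genes of retinol and retinal conversion (of 14 listed) and none of 7 receptor genes passed. Of other breakdown and delivery, Cyp2s1, a cytochrome P450 that can oxidise retinoic acid, passed in the other direction at 1.95 and 1.32 CPM in WT, and 0.642 and 0.410 in Ccr2-/- pools, 1 of 2 genes analysed, and Cyp26c1 was not analysed here. Of 10 response genes with over 100 reads (of 11 listed) Stra6 was higher and Ccr9, the gut homing receptor, lower (2.75 and 3.15 CPM in WT, 1.03 and 1.19 CPM in Ccr2-/- pools). These 4 genes were at low levels.

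The gene of each list with most reads in fibroblast-like cells stood as follows for WT days 3 and 5 and Ccr2-/- days 3 and 5, in that order. Rbp4, the retinol carrier, stood at 47.7, 47.2, 43.9 and 39.4 CPM, and Adh5, an alcohol dehydrogenase, at 56.3, 63.2, 62.8 and 59.5 CPM. Fabp5, which carries fatty acids and retinoic acid, stood at 61.5, 130, 50.7 and 113 CPM, higher on day 5 in both genotypes. Rarg, the main retinoic acid receptor of skin, stood at 74.8, 71.3, 42.2 and 53.0 CPM, and Rarres2, which encodes chemerin, at 3621, 3033, 3329 and 4282 CPM. None of these was 2-fold apart between genotypes at both days. In Mo-Mac-like cells over 100 reads were held by 2 genes of uptake and storage, 12 of conversion, 1 of other breakdown and delivery, 5 receptor genes and 7 response genes. None of them passed the 2-fold rule, against 6.37% of all 13776 genes with over 100 reads in these cells. Fabp5 stood there at 1533, 876, 1430 and 1701 CPM, Dhrs3, which turns retinal back to retinol, at 49.4, 101.01, 62.3 and 41.5 CPM, Rara at 120, 70.0, 68.4 and 66.2 CPM, Tgm2 at 79.5, 38.7, 150 and 173 CPM and Dgat1, which can esterify retinol, at 8.59, 14.6, 7.83 and 8.99 CPM.

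Days 3 and 5 took no part in the choice of the genes and were compared by edgeR's quasi-likelihood test over the 4 pools. Genotype was in the model, which leaves 1 residual degree of freedom. With no replicate pool, that degree of freedom is the difference of the day effect between the genotypes. The SE and adjusted p values rest on such differences and not on a spread among replicates. Of 20208 genes in fibroblast-like cells and 16352 in Mo-Mac-like cells 0% were called, with 1353 and 1270 genes at an unadjusted p under 0.05, so none of the 8 genes was called. DESeq2 called 0.476% of 31489 genes and 0.359% of 27606 genes. The most separate gene was Crabp2 in fibroblast-like cells, with 2.24 and 1.502 CPM on day 3 and 14.0 and 4.59 CPM on day 5. After thinning, the day 3 shares of cells with a read, 0.935% and 0.951%, were below the 1.04% of neutrophil-like cells. Few cells carried Crabp2, 12 and 41 on day 3 and 18 and 44 on day 5 (WT and Ccr2-/-). In WT mice 1 cell held 36.7% of its reads on day 3 and 26.4% on day 5. Its log2 difference of day 5 to day 3 was 2.11 ± 0.36 (SE, adjusted p = 0.70 by edgeR), and DESeq2 called it. Aldh1a3 followed at -0.66 ± 0.27 (adjusted p = 0.76 by edgeR), lower on day 5 in both genotypes. Cyp26b1 was at -0.35 ± 0.26, Rdh10 at 0.26 ± 0.22, Crabp1 at 0.09 ± 0.17 and Aldh1a1 at 0.02 ± 0.12 on the log2 scale. For Cyp26b1, Rdh10 and Crabp1 here, and Cyp26a1 in perichondrial-like cells below, the value averages changes that went opposite ways in the genotypes. Aldh1a2 was at 0.00 ± 0.11, with 28.3 against 29.2 CPM and 95.4 against 93.7 CPM, so its genotype gap had about the same size on both days. In Mo-Mac-like cells Cyp26b1 was at -0.46 ± 0.18 (adjusted p = 0.62 by edgeR), and in perichondrial-like cells Cyp26a1 was at -0.17 ± 0.32 (adjusted p = 1 by edgeR). In Mo-Mac-like cells Cyp26a1 was at -3.21 ± 0.78 (adjusted p = 0.55 by edgeR) at low levels, and was among the 0.974% of genes called when every gene with a read was kept.

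Across 43 combinations of cell type and pool with 20 or more cells, the genes with the most similar pattern to Aldh1a2 were Mmp3, a matrix metalloprotease (Pearson r of log2(CPM + 1) 0.82), Gm45338 (0.81) and Cxcl5, a neutrophil-attracting chemokine (0.80). For Aldh1a3 they were the transcription factor gene Hand2 (0.87), Lrrc15 (0.86) and the pentraxin gene Ptx3 (0.86). For Cyp26b1 they were Ak1 (0.84), the growth factor gene Igf1 (0.81) and the protease gene Ctsk (0.81). The combinations share libraries and 13 cell types, so these values describe where the genes were read and carry no test.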

How the data were processed

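The deposited values were counts of reads per gene and barcode, and of hashtag reads per barcode, in 1 cDNA and 1 hashtag library made by TAS-Seq on a BD Rhapsody cartridge. Per the methods, the authors used Cutadapt for trimming and Bowtie2 for alignment to mouse RNA of GRCm38.p6 and kept barcodes above the knee. Molecular identifiers were not used, so a count is a read, and all intervals cover counting error alone.

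A barcode was given to a pool when the reads of its pool hashtags summed to at least 10. Its highest scaled hashtag also had to be at least 3 times the next, with a small constant added to each count. Of 8953 barcodes, 760 lacked enough hashtag reads (among them 257 with no hashtag entry), 570 had several hashtags and were removed as doublets, and 7623 were assigned. Barcodes with over 20% mitochondrial reads or under 200 genes were removed, which left 7118 cells. Doublets within a pool could not be seen, and no doublet caller was run. A further 9 hashtag columns were not used.

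Cells were clustered with scanpy 1.11.5 (2000 variable genes, 30 components, 20 neighbours, Leiden resolution 1), without the 8 genes and the pathway lists, and named "-like" from fixed marker lists. Reads were summed per pool and type and given as CPM, reads of a gene for each 1000000 reads, with exact Poisson intervals. Shares have Clopper-Pearson intervals, and ratios have exact conditional binomial intervals. A pool at 0 reads was set to a floor of 3 reads in a ratio. Thinning drew 10000 reads per cell and left out shallower cells, 1560 of the 7118. Days were compared with edgeR 4.0.16 (quasi-likelihood, TMM, filterByExpr, model of genotype and day, Benjamini-Hochberg adjustment over all genes), with DESeq2 1.42.0 as an alternative. The day test was also run on simulated counts with a fixed spread and no genotype effect. That setting differs from these pools, so the run does not show how the test performs on them.

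The members, lists and tests were chosen with earlier results of these data known. Beyond the 8 genes, a pathway gene was named where it had the most reads of its list in fibroblast-like or Mo-Mac-like cells, was at least 2-fold apart between genotypes at both days in fibroblast-like cells with over 100 reads, or was called between days. For each of Aldh1a2, Aldh1a3 and Cyp26b1, the 3 genes of most similar pattern were named. Alternatives were a hashtag ratio of 10, a mitochondrial limit of 10%, the mean over cells, thinning, leaving out deep cells or the top cell, TMM scaling, other clusterings and a gate per cell.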

Additional observations from a re-analysis of the deposited data

Results flagged for a closer look

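Among levels of at least 20 CPM in all 4 pools of a cell type, in 4 cases the level on day 5 relative to day 3 went opposite ways in the 2 genotypes with both counting intervals clear of 1, each with 1 pool per genotype and day, and the difference was not tested. Cyp26b1 in fibroblast-like cells was at 0.541 of its day 3 level in WT mice and at 1.136 in Ccr2-/- mice. Cyp26a1 in perichondrial-like cells was at 0.5183 in WT and 1.428 in Ccr2-/- mice, the WT pool on day 5 holding 28 cells. Rdh10 in fibroblast-like cells was at 0.8925 in WT and 1.609 in Ccr2-/- mice. Crabp1 in fibroblast-like cells was at 0.86 in WT and 1.321 in Ccr2-/- mice.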

How the results depend on the processing

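No paired analysis was possible because each genotype and day was 1 pool, and for the same reason no replicate could be left out. The count of genes at least 2-fold apart at both days in fibroblast-like cells went from 2 to 1 with cells of over 100000 reads left out, as Aldh1a2 on day 5 was at 1.703. Of the counts that answer a comparison, 35 stayed within 1.5 times and 7 did not, namely this one and the following. The count in Mo-Mac-like cells went from 1 to 2 without deep cells, without the top cell of each pool and with a gate per cell. DESeq2 called 150 genes between days in fibroblast-like cells and 99 in Mo-Mac-like cells, and keeping any gene with a read gave 269 in Mo-Mac-like cells, where edgeR with its filter called 0. Among the counts that stayed within 1.5 times, the members could still change. In fibroblast-like cells Cyp26a1 (higher) joined after thinning and Aldh1a1 (lower) joined at resolution 2. Over all cells Crabp2 dropped out with the mean over cells, after thinning and without deep cells, and Crabp1 (higher) joined at a hashtag ratio of 10. Of the ratios between genotypes of single genes under other settings, 132 stayed within their main counting interval and 166 moved outside it. The counting intervals therefore do not cover these choices of processing. Another 14 ratios between genotypes, with main intervals clear of 1, turned direction. In fibroblast-like cells on day 3 these were Cyp26b1 at a hashtag ratio of 10 (1.008) and resolution 0.5 (1.019), Rdh10 and Crabp1 with the mean over cells (1.188 and 0.7699), thinned (1.376 and 0.7828) and without deep cells (1.193 and 0.161), and Crabp2 without deep cells (1.219) and at resolution 2 (1.053). Crabp2 on day 5 without deep cells was at 6.917. Over all cells without deep cells Aldh1a1 on day 5 (1.108), Crabp1 on day 3 (0.4186) and Crabp2 on day 5 (1.321) turned. The cause was not tested. Over all settings the ratio on days 3 and 5 ran from 2.74 to 4.11 and 1.70 to 4.13 for Aldh1a2 and from 5.27 to 6.69 and 2.64 to 5.55 for Aldh1a3 in fibroblast-like cells, and from 5.51 to 15.4 and 12.9 to 30.5 for Cyp26b1 in Mo-Mac-like cells. The finer clusters, the settings for Mo-Mac-like cells and the limit of 500 reads were chosen after seeing the data.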

Other observations

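Cells that fitted no marker list also held reads of these genes. A cluster of 302 cells led by Gadd45b and Malat1, with a median of 5022 reads per cell, had 312.3 CPM of Cyp26b1, 149 of Crabp1, 111 of Aldh1a3 and 49.6 of Aldh1a2. A cluster of 196 cells led by Mir6240 and Alpk2 had 202 CPM of Cyp26b1 and 71.4 of Aldh1a3. A cluster of 56 cells led by Klk1 and Siglech had 262 CPM of Cyp26b1, 543 of its 628 reads lying in 1 cell.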
